A study of Mus musculus with 8 samples.

Results

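Mirtron-type microRNAs are a large group of late-numbered mouse precursors, mir-6896 to mir-7094, most of which are cut out of introns. They were described here in myoblasts, the muscle precursor cells that divide and fuse into fibres. The group was chosen by name alone, as every listed precursor numbered mir-6896 to mir-7094, letter and copy suffixes included. This gave 203 of the 1181 precursors listed. Small RNA had been sequenced on an Illumina GAIIx from C57BL/6J myoblasts of old and young mice, 4 libraries each, after isolation with a mirVana kit. No genotype, treatment, age in months, muscle of origin or passage is given in the labels, and both groups are of the same strain. The libraries are named old 1 to old 4 and young 1 to young 4, as the sample titles number them. Each was taken as 1 mouse, which the titles do not state. Levels are the log2 values the authors deposited, in which a linear value under 1 is listed as 0.

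A microRNA is usually cut from its primary transcript by the nuclear enzyme Drosha and then from its hairpin by Dicer. A mirtron skips the first cut: the spliceosome releases a short intron, the lariat is opened, and the intron itself folds into the hairpin that Dicer cuts. In a tailed mirtron splicing sets one end of the hairpin and the surplus intron at the other end has to be trimmed away. The arm that ends at the 3′ splice site carries the pyrimidine-rich tract and the terminal AG of the intron, and the arm that begins at the 5′ splice site carries its GU. Because splicing makes them, such microRNAs can only arise where the host gene is transcribed.

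The 4 most abundant members that are whole introns show this most plainly. Their RefSeq hairpins (GRCm38.p6, the same build as mm10) are printed 5′ to 3′, with the GU of the 5′ splice site and the AG of the 3′ splice site in capitals.
mir-6944: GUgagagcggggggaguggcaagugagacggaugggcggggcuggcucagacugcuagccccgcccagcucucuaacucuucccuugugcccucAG
mir-7068: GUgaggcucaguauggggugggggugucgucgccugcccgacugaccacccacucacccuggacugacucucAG
mir-6923: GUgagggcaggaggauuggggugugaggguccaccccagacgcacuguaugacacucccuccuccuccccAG
mir-7018: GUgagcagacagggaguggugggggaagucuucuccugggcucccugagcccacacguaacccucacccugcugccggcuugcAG

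The next 4 are tailed mirtrons, shown for contrast. They end in the same AG, but their first bases lie inside the intron and are not a splice site.
mir-7019: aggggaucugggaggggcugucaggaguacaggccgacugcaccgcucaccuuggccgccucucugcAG
mir-7052: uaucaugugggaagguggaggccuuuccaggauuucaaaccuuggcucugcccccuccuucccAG
mir-7035: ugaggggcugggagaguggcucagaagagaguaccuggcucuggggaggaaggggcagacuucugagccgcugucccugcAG
mir-6988: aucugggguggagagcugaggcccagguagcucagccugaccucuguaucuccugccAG

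The mature arms of these hairpins, with the seed (bases 2 to 8, which pair with targets) in capitals, show how the splice sites enter the seed. The 5p arms of the whole introns begin with the 5′ splice site, so their seeds open with UGAG. The 3p arms of mir-7068 and mir-7018 share one seed, CACCCUG.
miR-6944-5p: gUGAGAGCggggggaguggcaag
miR-6944-3p: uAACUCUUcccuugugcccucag
miR-7068-5p: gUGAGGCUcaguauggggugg
miR-7068-3p: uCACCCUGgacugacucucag
miR-6923-5p: gUGAGGGCaggaggauuggggugu
miR-7018-5p: gUGAGCAGacagggaguggugggg
miR-7018-3p: uCACCCUGcugccggcuugcag
miR-7019-5p: aUCUGGGAggggcugucaggagu
miR-7019-3p: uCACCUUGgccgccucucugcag

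By position nearly all members lay as mirtrons do. The block of numbers was known in advance to hold mostly mirtrons and other intron-derived hairpins, so this is no independent check of the name. Of the 203, 202 had a position, and all 202 lay in an intron of 197 host genes in the GENCODE annotation of GRCm38. For each one the intron whose end lay nearest was used. The hairpin ended exactly on the last base of that intron in 188 (93.1%), against 20 of the 973 other precursors with a position (2.1%). The remaining member without a position is a second listing of mir-6967. Ankrd52, Arap3, Cmip, Skiv2l and Srebf1 each held 2 members.

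By the share of the intron they take up, 14 members filled the whole intron, with both ends within 2 bases of the splice sites, and these introns ran from 67 to 137 bases. A further 44 lay as tailed mirtrons do in introns of at most 150 bases, and 131 did so in longer introns, up to 36269 bases. The name tailed mirtron is used throughout for that position alone, as how the hairpins are cut was not measured. Only 13 positioned members did not end within 2 bases of an intron end. In 8 of these the listed hairpin ran 6 or 7 bases into the next exon, as in mir-6901 in Sned1. The 3p arm was known for 5 of the 8, and in 5 of 5 it nevertheless ended exactly at the splice site. Hairpins tailed at the 3′ end were rarer: mir-6927 in Mllt6, mir-6936 in Sirt7 and mir-6977 in Ptprs began on the first base of their intron and stopped 17, 12 and 15 bases short of its end.

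The arms followed the same pattern. Of 173 annotated 3p arms, 132 (76.3%) ended on the last base of the intron and 161 (93.1%) within 2 bases of it. In the whole introns, 10 of 11 annotated 5p arms began on the first base of the intron, and mir-7058 was the exception. Over all members, 14 of 173 5p arms did so. The motif GUGAG, a common start of vertebrate introns, opened 7 of 11 whole-intron hairpins, 0 of 158 tailed ones and 13 of the 963 hairpins matched in the table (1.3%, read on the hairpin's own strand).

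Sequence composition set the members apart from the other precursors in the same direction. RefSeq held 181 of the 203 member hairpins and 782 of the others. The median member hairpin was 66 bases long with 57.1% G and C, against 83 bases and 50.0% for the others. A terminal AG closed 168 member hairpins (92.8%) and 65 others (8.3%). The arms differed in base content: a median of 72.7% of the bases of member 3p arms were C or U, against 54.2% in the other precursors, while G made up a median of 44.0% of member 5p arms, against 27.3%.

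Few seeds were shared. The 345 member arms carried 318 different seeds, of which 23 occurred in more than one member and 35 (11.0%) also occurred in a microRNA outside the group. CACCCUG was found in miR-7018-3p, miR-7068-3p and miR-7023-3p. The seed UCUGGGA was shared by miR-7019-5p and miR-6907-5p. Among seeds shared with older microRNAs, miR-7003-5p had that of miR-491-5p, miR-6921-5p that of miR-423-5p, miR-7002-3p that of miR-218-5p, and miR-6958-5p that of the 3p arms of mir-30c. The values do not separate the 2 arms of a precursor, so which seed was present in the cells cannot be read from them.

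Depth sets what can be seen of precursors this rare. The linear values times hairpin length fall on whole multiples of a step in each library, as reads scaled to precursor length and library size would, and on that reading the old libraries held 25.1 to 28.0 M reads and the young ones 30.0 to 39.4 M. All young libraries were thus larger than all old ones. One read on a hairpin of 66 bases is then worth 0.384 linear units in young 4 and 0.603 in old 4, so a value of 0 allows 1 or 2 reads. Read numbers below are recovered in this way, and they are not counts of independent molecules. The labelled cell type was checked against marker microRNAs: mir-206, specific to skeletal muscle, stood between 14.78 and 16.52 in the 8 libraries, while 2 of 3 blood cell markers, mir-142 and mir-223, were listed at 0 in all of them and the third, mir-451a, was above 0 only in young 1, at 0.89. Of 7 muscle markers 5 were above 0 in every library; mir-1a-1 and mir-1a-2, which mark differentiated muscle, were low, with means of 2.16 and 1.79, and at 0 in young 4. The endothelial marker mir-126a was above 0 in every library, at 2.96 to 5.11. Of 6 neuronal and 5 epithelial markers 0 were above 0 in every library. Some were above 0 in part of them, up to 3.22 for mir-124-3 and 2.89 for mir-141. The liver marker mir-122 was above 0 in 3 libraries, at most at 2.53. Fibroblast and smooth muscle markers such as mir-143, at 14.06 to 15.56, were also high. The part of these other cell types in the results below was not tested.

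Most members were rare. Of the 203, 57 (28.1%) were above 0 in all 8 libraries, 103 in 1 to 7 libraries and 43 (21.2%) in none. The 271 other precursors with numbers of 5000 and over, which are numbered as late, were above 0 in all libraries in 14.8% of cases and in none in 57.9%. The 707 precursors with older numbers were at 48.5% and 28.3%. Few members were abundant: 3 of 203 had a mean linear value of at least 100, against 7 of the 271 and 208 of the 707. These shares are descriptions of one table, in which members share libraries and depth.

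**Figure D1:**
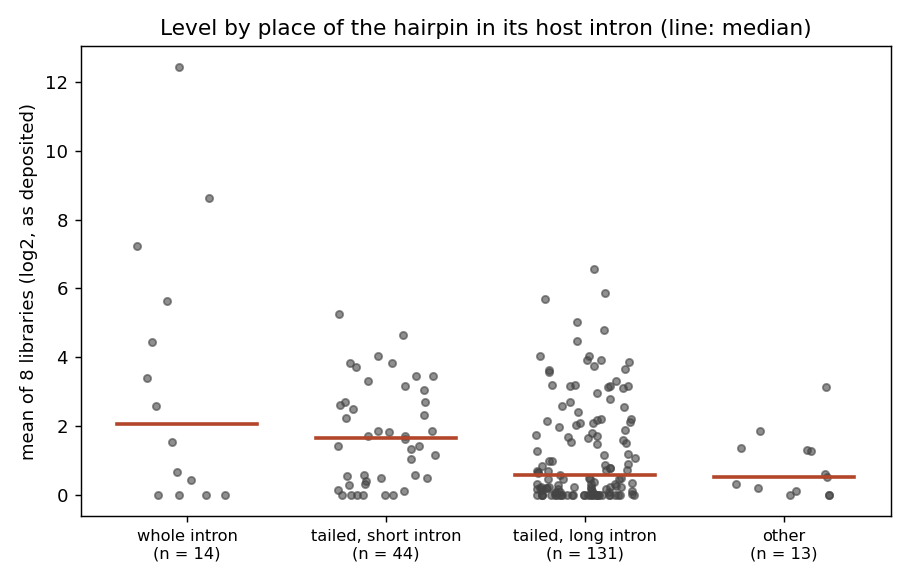
Mean log2 level over the 8 libraries (vertical axis, as deposited) of 202 mirtron-type precursors, grouped by place in the host intron; each point is a precursor, horizontal jitter has no meaning, and the line is the group's median. The 3 highest points, from 7.22 to 12.42, are whole introns, and the median falls from 2.07 in whole introns to 0.58 in tailed mirtrons of long introns.

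Median level differed with the place in the intron, as the plot of levels by intron class shows; members share libraries and this was not tested. Whole introns had a median of 2.07 over their 8-library means, tailed mirtrons of short introns 1.67 and tailed mirtrons of long introns 0.58. The classes overlapped widely: 4 of 14 whole introns, those in Lta, Lat, Mst1 and Arap3, were at 0 in every library, and mir-7019, a tailed mirtron of a long intron, reached a mean of 6.57. Lta encodes a lymphocyte cytokine and Lat an adaptor of the T cell receptor. Members at 0 in every library also lay in other kinds of gene, such as mir-7090 in Ctnnb1 and mir-7065 in Cul4a. Arap3 also holds the tailed mirtron mir-6980, which was at 0.64 in young 3 and 0.37 in young 4 and at 0 elsewhere. Host transcripts were not measured, so their part in these zeros was not tested. The 14 whole introns together held 72.5% to 89.8% of the members' summed linear value in each library, most of it from a single precursor.

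That precursor was mir-6944, which fills an intron of 96 bases in Dbn1 (chr13:55477681-55477776, minus strand, mm10). Dbn1 encodes drebrin, an actin-binding protein. Its log2 level was 12.41, 12.64, 12.42 and 11.26 across old 1 to old 4 and 12.40, 12.87, 12.91 and 12.45 across young 1 to young 4. Old 4 was the lowest of the 8, and the other 3 old libraries lay among the young ones. In reads this was 5913 in old 4 and 13789 to 24166 in the other libraries. It alone made up 61.5% of the members' summed level in old 4 and 74.9% to 81.4% elsewhere.

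The second was mir-7068, the whole intron of 74 bases in Cherp (chr8:72470016-72470089, minus strand), whose product is a calcium homeostasis protein of the endoplasmic reticulum. It stood at 8.67, 8.47, 9.03 and 8.43 in the old and 8.16, 9.12, 9.02 and 8.21 in the young libraries. The old values lay inside the wider range of the young ones, and all were within 1 log2 unit.

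**Figure D2:**
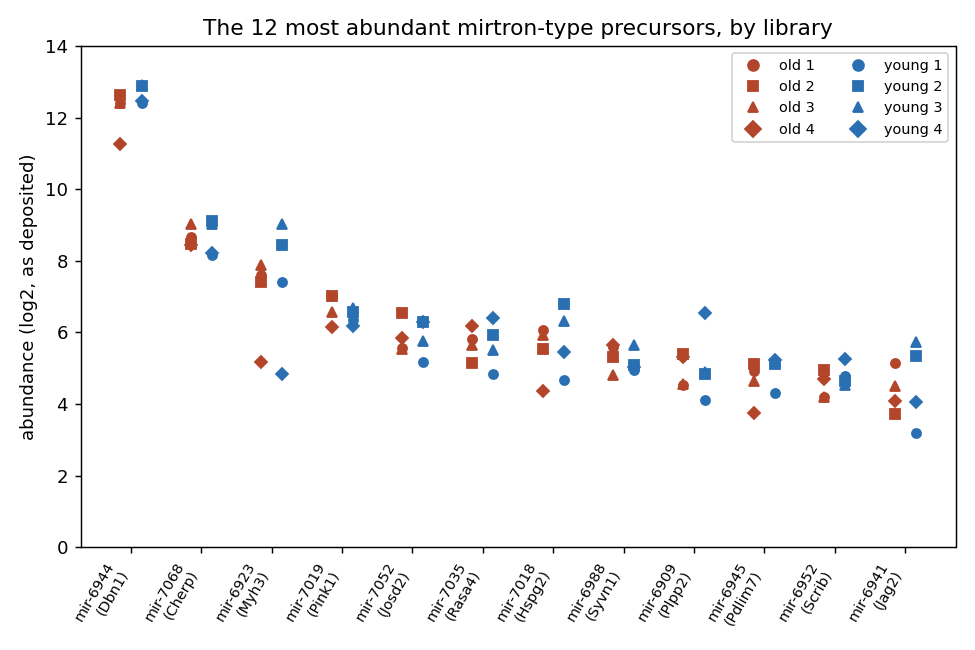
Log2 level (vertical axis, as deposited) of the 12 mirtron-type precursors with the highest means, with the host gene in brackets. Red points are old and blue points young libraries, and the symbol gives the library number. The groups overlap for all 12, mir-6944 lies above the rest in every library, and mir-6923 has the widest spread.

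Below these the levels ran together. The tailed mirtron mir-7019, in Pink1, a kinase of mitochondrial quality control, stood at 7.02, 7.03, 6.58 and 6.14 in the old and 6.34, 6.57, 6.67 and 6.19 in the young libraries, one of the narrowest spreads of the group. Josd2, a deubiquitinase gene, holds mir-7052, at 5.57, 6.53, 5.54 and 5.84 in the old and 5.17, 6.30, 5.75 and 6.28 in the young libraries. For mir-7035, in the Ras GTPase-activating gene Rasa4, the values were 5.81, 5.15, 5.66 and 6.19 against 4.83, 5.94, 5.51 and 6.41. In each of these the old and the young values were interleaved.

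Hspg2, the gene of the basement membrane proteoglycan perlecan, holds mir-7018 as a whole intron of 85 bases, at 6.07, 5.53, 5.94 and 4.36 in the old and 4.67, 6.79, 6.32 and 5.46 in the young libraries. Old 4 and young 1 were its lowest libraries, so that the low values fell in both groups. mir-7068, which shares its 3p seed, was also lowest in young 1, at 8.16, but stood at 8.43 in old 4. The third carrier of that seed, mir-7023 in Pik3cd, was never above 1.26. The remaining members of the 12 highest were mir-6988 in the ubiquitin ligase gene Syvn1, mir-6909 in Plpp2, mir-6945 in Pdlim7, mir-6952 in the polarity gene Scrib and mir-6941 in the Notch ligand gene Jag2. Their means over 8 libraries lay between 4.47 and 5.26, and neighbours in this order differed by less than their spread between libraries.

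Among abundant members the largest spread belonged to mir-6923, the whole intron of 72 bases in Myh3 (chr11:67099804-67099875, plus strand), which encodes embryonic myosin heavy chain, a myosin that muscle cells make as they differentiate. It stood at 7.61, 7.41, 7.88 and 5.17 in the old and 7.42, 8.43, 9.02 and 4.85 in the young libraries. Old 4 and young 4 lay below the other 6, which were at 7.41 or more, with 65 and 82 reads against 318 to 1223. Old minus young was -0.41 (SE 0.94, 95% interval -2.52 to 1.69), so an age difference in either direction was not detectable with this spread. Leaving out old 4 gave 0.20, leaving out young 3 gave 0.12 and leaving out young 4 gave -1.27.

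Other microRNAs in myosin heavy chain introns, looked at after these values were seen, were low in the same libraries. mir-208b, in Myh7, was at 3.80, 4.21, 4.57 and 0 in the old and 0.38, 4.39, 4.22 and 0 in the young libraries, so that it was also near 0 in young 1, where mir-6923 was not low. mir-499, in Myh7b, was at 4.32, 4.60, 3.95 and 1.60 in the old and 3.45, 4.44, 5.42 and 0.36 in the young libraries, lowest in old 4 and young 4. Neither is a mirtron, and both host genes encode slow or cardiac-type myosins. Muscle microRNAs were not alike in these libraries. mir-133a-1 was lowest in young 4, at 11.91, while old 4, at 12.94, lay near old 1, at 12.99. mir-206 and mir-486 were also lowest in young 4, at 14.78 and 20.29. Their old 4 values, 15.76 and 21.37, lay near those of old 2, 15.83 and 21.06. mir-133b was instead highest in old 4, at 13.28, and lowest in old 2, at 10.17, with young 4 at 11.05. In bulk cells a smaller share of cells that express a gene and less RNA in each cell cannot be told apart.

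**Figure D3:**
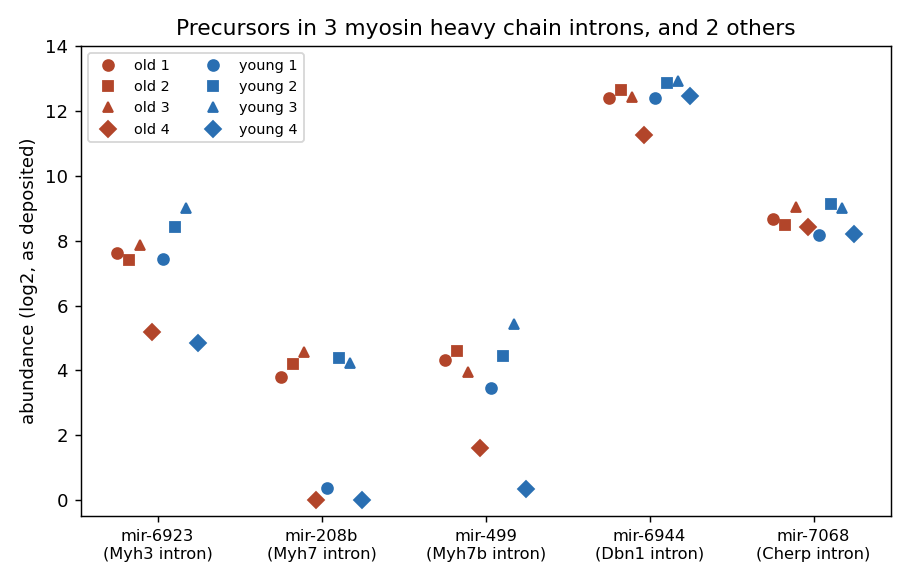
Log2 level (vertical axis, as deposited) of mir-6923 and of mir-208b and mir-499, which lie in 3 myosin heavy chain introns, beside the 2 most abundant mirtron-type precursors. Red points are old and blue points young libraries, and the symbol gives the library number. Old 4 and young 4 (diamonds) are low for the 3 myosin introns. Old 4 is also the lowest library of mir-6944, at 11.26, while young 4 is at 12.45. mir-7068 stays between 8.16 and 9.12, with old 4 at 8.43 and young 4 at 8.21.

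Detection was compared library by library. The number of members above 0 was 114, 117, 118 and 107 for old 1 to old 4, a mean of 114 ± 4.97 (SD, n = 4), and 101, 105, 118 and 117 for young 1 to young 4, a mean of 110.2 ± 8.54. Young 1 had the fewest and old 3 and young 3 the most, and the groups overlapped. Since the floor of the values lies at fewer reads in a smaller library, the count was repeated at a level worth 3 reads in the shallowest library, which left 89, 94, 97 and 102 in the old and 84, 96, 103 and 112 in the young libraries. The difference of the means then turned from 3.75 more in old to 3.25 fewer, smaller than the spread between young libraries under both rules.

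**Figure D4:**
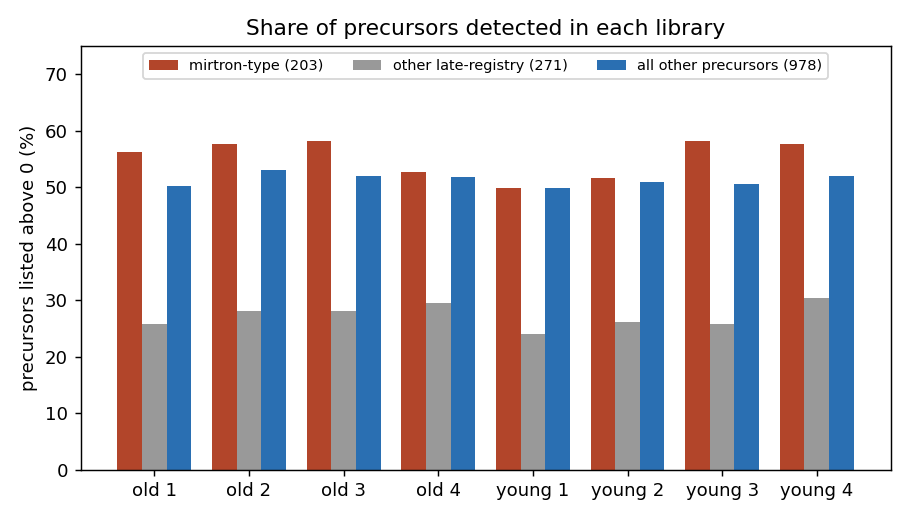
Share of precursors listed above 0 (vertical axis, %) in each of the 8 libraries, for the 203 mirtron-type precursors, the 271 other precursors numbered 5000 and over, and all 978 other precursors. Mirtron-type precursors were at 49.8% to 58.1%, the 978 others at 49.8% to 53.0% and the other late-numbered ones at 24.0% to 30.3%.

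As a share of the summed linear value of all precursors, members came to 0.0585%, 0.0886%, 0.0633% and 0.0327% in the old and 0.0441%, 0.0920%, 0.0774% and 0.0764% in the young libraries. The lowest was old 4, where mir-6944 was low, and the next lowest young 1. The summed value is dominated by the muscle-enriched mir-486 and by mir-3107, which repeats its reads. Leaving both out of it, the members' share was 0.189%, 0.210%, 0.167% and 0.0711% for the old and 0.163%, 0.178%, 0.231% and 0.113% for the young mice. Old 4 was again the lowest, followed then by young 4. With both kept, the old mean of 0.0608% ± 0.0229 and the young mean of 0.0725% ± 0.0202 (SD, n = 4 each) differed by less than the spread within either group. Without mir-6944 the means were 0.0153% and 0.0160%.

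The levels were then compared between old and young mice by limma over all precursors that reached a linear value of 10 in 4 or more libraries. This kept 359 precursors, of which 39 were members, 19.2% of the 203. The others were too rare to test. Because 4 libraries of one age are enough, the filter can let a precursor in through the age where it is high. No member passed an adjusted p of 0.05 (Benjamini-Hochberg over 359 precursors), as no precursor did (0 of 359, 0%), and the smallest adjusted p was 0.995. voom on the recovered reads, tried after seeing the data, called 0 as well. An unadjusted p under 0.05 was reached by 1 of 39 members (2.56%), against 4 of all 359 (1.11%). Of the 39, 18 were higher and 21 lower in old mice, with a median difference of -0.04 on the log2 scale, and over all 359 the counts were 165 and 194 and the median -0.05. The differences ran from -1.40 to 1.65 and 36 lay within 1 log2 unit of 0. With a median standard error of 0.56, differences of about a doubling could not be told from no difference for most of them.

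**Figure D5:**
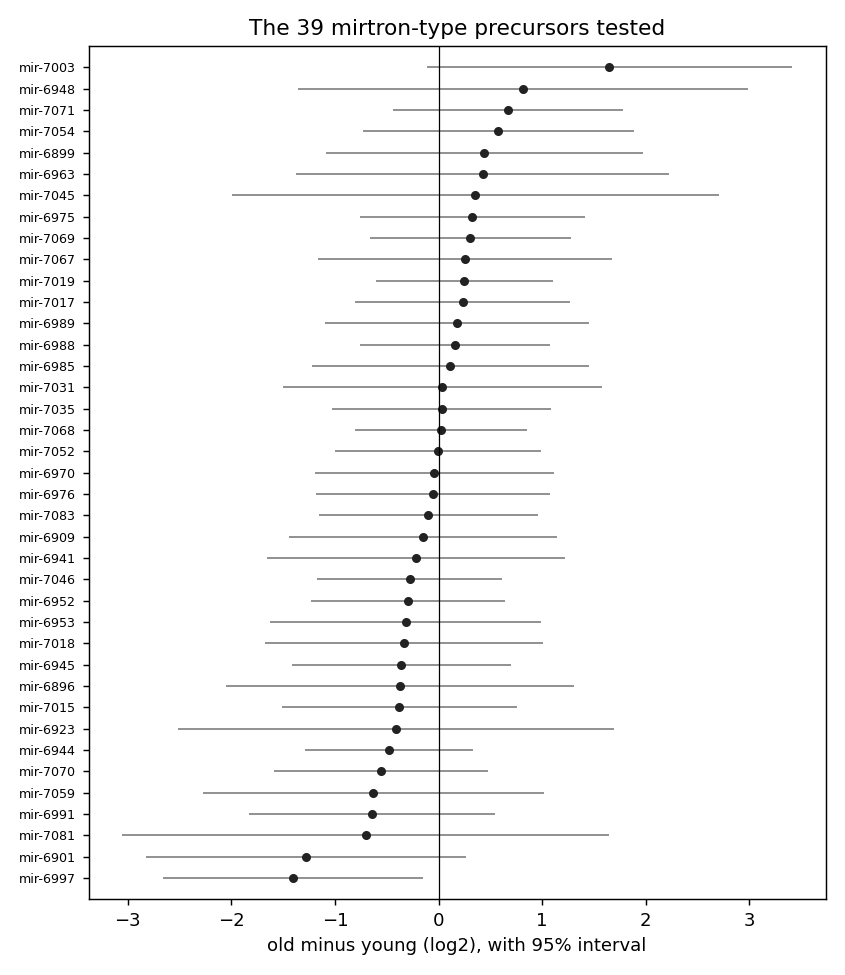
Old minus young difference (horizontal axis, log2) of the 39 mirtron-type precursors tested, with the 95% interval from limma; positive values are higher in old mice. The interval of mir-6997, from -2.66 to -0.15, is the only one that does not reach across 0, before any correction for multiple tests.

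The member with the smallest p was mir-6997, a tailed mirtron in Sptan1, the gene of alpha spectrin (chr2:29995950-29996020, plus strand). It stood at 2.71, 2.58, 3.35 and 1.17 in the old and 3.61, 3.62, 4.46 and 3.73 in the young libraries. Every old value was below every young one, the only tested member for which the groups did not overlap (1 of 39, 2.56%, against 3 of 359, 0.836%). The filter can favour such members: mir-6997 met it in all 4 young libraries but, among the old, only in old 3. The difference was -1.40 (SE 0.56), with an unadjusted limma p of 0.0322 and an adjusted p of 0.995. A two-sided exact permutation test gave 0.0286, the smallest that 4 against 4 libraries allow. Any groups without overlap give that value, so it only restates the lack of overlap. With 10 added to the linear values before taking logs, which shrinks differences of low precursors, the difference was -0.62. It rests on 4 to 19 reads in the old and 26 to 51 in the young libraries. Its hairpin and 3p arm follow, with the AG of the splice site or the seed in capitals.
mir-6997: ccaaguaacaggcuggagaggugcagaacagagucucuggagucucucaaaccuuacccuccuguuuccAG
miR-6997-3p: uCAAACCUuacccuccuguuucc

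The largest difference in the other direction was that of mir-7003, in Mybl2, a transcription factor gene of dividing cells (chr2:163068090-163068155, plus strand). Its values were 3.98, 4.68, 4.02 and 3.36 in the old and 0.02, 2.50, 3.35 and 3.58 in the young libraries. Young 1, with 2 reads, was far below the other 7, and old 4 lay within the young range. The difference was 1.65 (SE 0.79, unadjusted limma p 0.0639), and 0.87 without young 1 or 0.67 with 10 added.

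The whole list of the 10 members with the smallest p also held mir-6901, at 1.53, 1.90, 3.0 and 3.54 in the old and 2.28, 3.96, 4.03 and 4.82 in the young libraries. Its groups overlapped, and the difference was -1.28 (SE 0.69), or -0.62 with 10 added. For mir-7071 in Heatr3, mir-7054 in Scaf1 and mir-6948 in Acin1 the old mean was higher, by 0.67, 0.58 and 0.82, and for mir-6944, mir-6991, mir-7070 and mir-7059 it was lower, by values from -0.64 to -0.48. For each of these the unadjusted limma p was above 0.2 and the groups overlapped. Single libraries moved several of these values. Without old 4, mir-7059 went from -0.63 to -0.03 and mir-6991 from -0.64 to -0.28, and without old 2 mir-7059 went to -1.27 and mir-7070 from -0.55 to -0.32. mir-7054 became 0.26 without young 3 and 1.08 without young 4. mir-6944 differed by -0.48 (SE 0.36) with old 4 and by -0.17 without it. mir-6948 changed sign, to -0.15, without young 1, where it was at 0.

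The widest range over libraries among tested members was that of mir-7081, in the DNA methyltransferase gene Dnmt1, at 3.79, 0.04, 4.42 and 5.02 in the old and 3.53, 3.25, 3.83 and 5.47 in the young libraries. Old 2 alone, with 2 reads, set that range. Without old 2 the difference turned from -0.70 to 0.39.

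At the lower edge of detection, 3 members were above 0 in at least 3 libraries of one age and in none of the other (3 of the 160 members ever above 0, 1.88%, against 7 of all 781 such precursors, 0.896%). mir-6907 in Rrp1 was at 0.01, 0.12, 0 and 1.75 in old libraries, or 2, 2, 0 and 6 reads. mir-7030 in Rab35 was at 0.84, 0, 0.35 and 1.0 in old libraries, or 3, 0, 2 and 3 reads. mir-6930 in Slc25a39 was above 0 only in young libraries, at 0, 1.20, 1.17 and 0.16, with at most 5 reads. A listed 0 allows up to 1 read in the old libraries and up to 2 in the young ones for these hairpins. These members rest on a few reads each and were below the level tested.

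Also below that level, and singled out after their values were seen, were 2 tailed mirtrons whose old and young values did not overlap. mir-6979, in the formin gene Diaph1, was at 0.36, 2.05, 1.45 and 0 in the old and 2.43, 3.41, 2.59 and 3.62 in the young libraries, or 0 to 6 against 9 to 27 reads. Fitted with no filter on low values, the difference was -2.05 (SE 0.60, unadjusted limma p 0.00764, adjusted p 0.982). mir-6938, in the mismatch repair gene Mlh3, was at 0.77, 0.29, 0.86 and 1.66 in the old libraries, 0.09 in young 1 and 0 in the other young ones, with at most 5 reads. Over all levels, 3 of 160 members (1.88%) and 8 of 781 precursors (1.02%) had groups that did not overlap.

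Mirtrons with older numbers, which are not members, give a scale for these levels. mir-877, the whole intron of 85 bases in Abcf1, stood at 10.10 ± 0.28 in the old and 9.93 ± 0.42 in the young libraries (SD, n = 4 each), between mir-6944 and mir-7068. mir-702 in Plod3 stood at 5.93 ± 0.41 and 6.24 ± 0.61, level with mir-7052. mir-1224, in Vwa5b2, was at 0.33, 1.66, 0.43 and 2.49 in old libraries and at 0 in all 4 young ones. That is 3, 7, 3 and 12 reads, where a 0 in a young library allows up to 2 reads, or 3 in young 4, and it was below the level tested.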

How the data were processed

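The log2 values that the authors deposited, for 1181 microRNA precursors in 8 libraries, have 2 decimals and are 0 where the linear value is under 1. The submitters' processing notes name BWA and mm10; counting, strand, multiple matches and normalization were not given in the sources used here. Low values, up to 12 reads, times hairpin length were whole multiples of a step in 99.09% to 100% of cases (tolerance 0.1 of a read), from which reads were recovered. Of 12 pairs of rows at overlapping positions that repeat one another's reads, 0 involve a member. Copies at other positions and the second listing of mir-6967 were outside this search.

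limma 3.58.1 (R 4.3.3, eBayes with trend) was run on the deposited values of 359 precursors, old against young, with no pseudocount, Benjamini-Hochberg adjustment and a threshold of 0.05. It was also run on simulated data, drawn as independent normal values with no floor at 0. That does not show how it performs on values near the floor. The p-values rest on the spread between libraries. That each library is a separate mouse was assumed, as the titles do not state it. The 95% intervals are limma's. The labels number the libraries in both groups, but state no pairing, so no block was used.

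Positions and sequences are from RefSeq (GRCm38.p6), introns from GENCODE M21. Where several introns ended equally near, the shortest was taken. Figures were drawn with Python 3.11.15 and matplotlib 3.10.9.

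Members and lists were chosen with earlier results of these data known. Named were members past the threshold (none was), the 10 with the smallest p, the 12 highest means, tested members whose groups do not overlap, members above 0 in at least 3 libraries of one group only, the 3 largest ranges, and mir-877, mir-1224 and mir-702. Others named by their host, seed or position were chosen after their values were seen. Alternatives were other filters, pseudocounts, rescalings and weights, the replicate block, repeated reads kept once and each library left out; voom on recovered reads and leaving out old 4 and young 4 together were chosen after seeing the data.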

Additional observations from a re-analysis of the deposited data

Results flagged for a closer look

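Of 60 groups of 4 libraries checked for the named members, 4 held a library far from the other 3. For independent normal values chance gives about 1 in 20, and 4 of 60 is near that. Most named members were chosen from these same values and share libraries, so that rate is only a rough guide. mir-6944 was at 11.26 in old 4, with the other old libraries between 12.41 and 12.64. mir-6907 was at 1.75 in old 4, with the others at 0.12 or less, at the floor of the values. mir-6945 was at 4.30 in young 1, with the others between 5.12 and 5.24. mir-6997 was at 4.46 in young 3, with the others between 3.61 and 3.73.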

How the results depend on the processing

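No precursor was called in any setting. Precursors with an unadjusted p under 0.05 rose from 4 to 36 without old 3, 27 without young 4, 27 with array weights, 39 with the replicate block, and 15 and 19 where looser filters let 635 and 781 precursors in, but members among them only to between 0 and 6. Old 2, 3 and 4 each deviated most like the young library of the same number (correlations 0.43, 0.66 and 0.58), while old 1 did not (-0.06) and was closest to young 4. The labels state no pairing, so whether the numbers pair the mice is not settled. With the replicate block 0 members and 0 precursors were called (smallest adjusted limma p 0.110). Quantile normalization moved the median difference of all precursors by 0.141 and rescaling to the summed value of all but mir-486 and mir-3107 by 0.195, and the members' median of -0.04 became 0.106 and 0.155. It was -0.412 over the 3 members with a mean linear value of at least 100, and -0.240 to 0.118 with a library left out (lowest without young 1, highest without young 4). Detection, 3.75 more members in old, became -3.25 at 3 reads in the shallowest library and 0.67 to 6.33 with a library left out (0.67 without young 1). The share of the summed value differed by -0.0212 to -0.0023 percentage points with a library left out, the smallest without old 4.

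For 22 named members, 434 of 465 alternative differences kept their sign and 31 did not, over 10 members. mir-7052 became 0.266 (quantile), 0.190 (the sum of all but mir-486 and mir-3107), 0.065 (array weights) and 0.140 (without old 4 and young 4). mir-6909 became 0.159, 0.043, 0.055 and 0.213 in the same order. mir-7068 became -0.102 with array weights and -0.043 without old 4 and young 4, and mir-6945 0.020 without both. With a library left out the ranges were -0.153 to 1.253 for mir-6948, -0.133 to 0.187 for mir-7068, -1.272 to 0.203 for mir-6923, -0.240 to 0.137 for mir-7052, -0.251 to 0.276 for mir-7035, -0.715 to 0.037 for mir-7018, -0.482 to 0.332 for mir-6909, -0.683 to 0.167 for mir-6941 and -1.270 to 0.390 for mir-7081. The cause was not tested. Few reads stand behind most values: 30 of 39 tested members had a mean log2 value under 5. With 10 added to the linear values, 0 of the 22 differences changed sign.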
